A study of Mus musculus with 14 samples.

Results

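The response of the mouse spinal cord to injury was described in animals labelled as lacking the cytokine gene Csf1 in astrocytes. The 7 libraries were chosen by their labels from 14 in the series: 4 of the group AstroCSF1KO SCI, taken 7 days after spinal cord injury (SCI), and 3 of the group AstroCSF1KO uninjured. Each library was made from poly(A)-selected RNA of 1 piece of whole cord, which held the lesion in injured mice and, per the labels, came from the matching segments in mice without injury. Both groups carry the labelled deletion, and the strain, age and sex of the mice, the driver of the deletion, the deleted exons and the kind of injury are not stated in the labels. The other 7 libraries, 3 control uninjured and 4 control SCI, are not labelled with it and are set beside the response only at the end. Levels are FPKM, fragments scaled to gene length and to sequencing depth. Of 56748 genes in the deposited table, the 15155 with at least 1 FPKM in at least 3 of the 14 libraries were tested and are called measured below.

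A contusion or cut of the cord kills neurons and glia and opens the blood vessels. Microglia and blood-borne macrophages then clear myelin and dead cells, astrocytes enlarge and form a border, and fibroblasts lay down a collagen-rich core. Csf1 is a secreted ligand of the receptor Csf1r, through which microglia and macrophages are kept alive and divide, and astrocytes and injured neurons are among the cells that make it.

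Recovered reads came to 16516359 to 20626257 per library. Csf1 (ENSMUSG00000014599) stood at 8.23, 10.3 and 11 FPKM in uninjured replicates 1 to 3 and at 19.9, 16.4, 18.6 and 19.2 FPKM in injured replicates 1 to 4. It was therefore present in every library labelled knockout and was higher in each injured one than in each uninjured one, with a log2 change of 0.85 ± 0.10 (standard error, limma adjusted p = 4.15e-04). In control cords it stood at 4.24, 11.9 and 12.2 FPKM without injury and at 7.95, 17.6, 18.3 and 10.4 FPKM with it. The means in labelled-knockout cords, 9.87 FPKM without and 18.5 FPKM with injury, were not below those of controls, 9.46 and 13.6 FPKM. The control values of 4.24, 7.95 and 10.4 FPKM come from 3 libraries with fewer detected genes, described at the end. Without them the uninjured controls were above all 3 uninjured labelled-knockout libraries, and the injured controls lay within the range of the injured labelled-knockout libraries. The difference in Csf1 between genotypes was not tested, and these values do not settle whether the labelled deletion is present. Whole-cord RNA holds Csf1 from all cells, so loss in astrocytes cannot be read from it, and the libraries are described by their label. Reads on rRNA genes made up 2.89 to 3.99% of the total in uninjured replicate 3 and injured replicates 2 to 4, called rRNA-rich below, and 0.315 to 0.426% in the other 3 libraries. Skeletal muscle genes summed to 436 FPKM in injured replicate 1 and to 3.51 to 46.3 FPKM in the other 6 libraries. Schwann cell genes, which mark nerve roots, summed to 67.0 to 99.6 FPKM in uninjured replicate 3 and injured replicates 2 and 3 and to 241 to 460.5 FPKM elsewhere. Sensory ganglion genes summed to 25.3 FPKM in injured replicate 4 and to 0.941 to 1.69 FPKM elsewhere. These tissues adjoin the cord, and their part in the results below was not tested except where values without a library are given. As labelled, the tissue was cord: central myelin genes summed to 5758 to 6305 FPKM without injury and to 5642 to 6522 FPKM with it.

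Injury changed a large share of the transcriptome. Of the 15155 genes, 2991 (19.7%) were called higher and 3952 (26.1%) lower at an adjusted p under 0.05, together 6943 or 45.8%. The groups did not overlap in 7686 genes (50.7%). Most changes were small, with a median log2 change of 0.55 among genes called higher and -0.43 among those called lower, and the large ones were nearly all rises. A log2 change above 1 was reached by 672 genes called higher and 100 called lower, and a change above 3 by 39 and 1. Genes called higher started low, at a median of 2.74 FPKM in uninjured cords, and genes called lower started at 12.9 FPKM, against 5.02 FPKM over all measured genes. In 450 genes every uninjured library was below 1 FPKM and every injured one at or above it, and in 79 the reverse held. All changes below are injured minus uninjured on log2(FPKM + 1), given with the limma standard error, and a count of called members is to be read against the 19.7% higher and 26.1% lower among all genes.

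**Figure D1:**
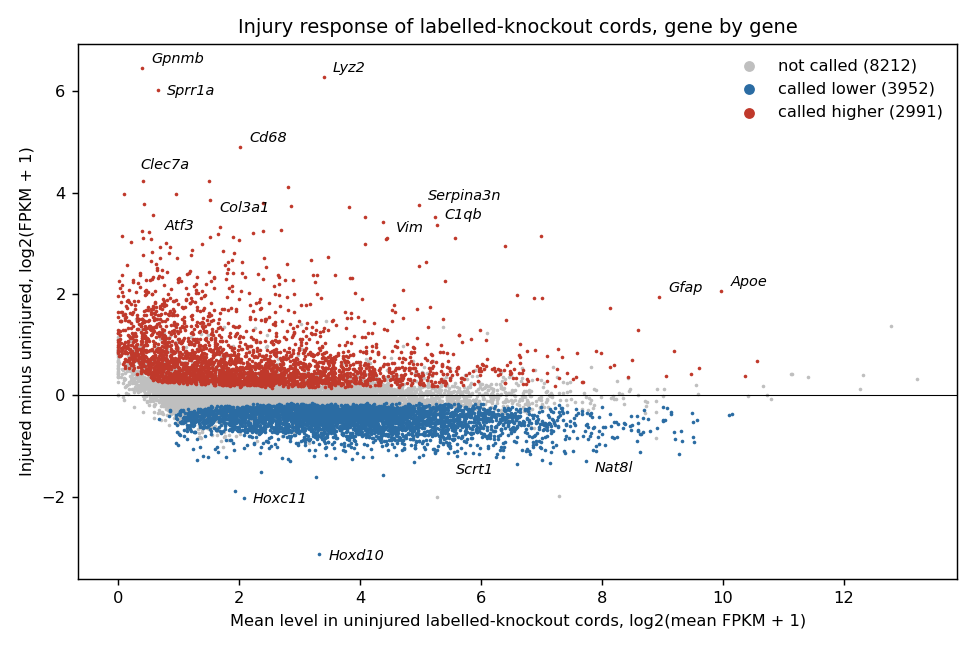
Change on injury of each of the 15155 measured genes in labelled-knockout cords, as log2(FPKM + 1) of 4 injured minus 3 uninjured libraries, against the mean level in uninjured cords. Red points are the 2991 genes called higher and blue points the 3952 called lower; the rises reach 6.45 and the falls -3.14, and the largest rises are of genes that were low without injury.

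The 72 gene lists used here cover cell types, pathways and neighbouring tissues, and 60 of them describe a cell type, state or pathway of the cord and have at least 5 measured members. At least 50% of the measured members were called higher in 30 of these 60 and lower in 12. A gene that was low without injury could pass the filter only through libraries in which it was high, so the counts describe measured members and are not support for a list. In whole tissue, fewer cells of a type and less RNA per cell cannot be told apart.

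**Figure D2:**
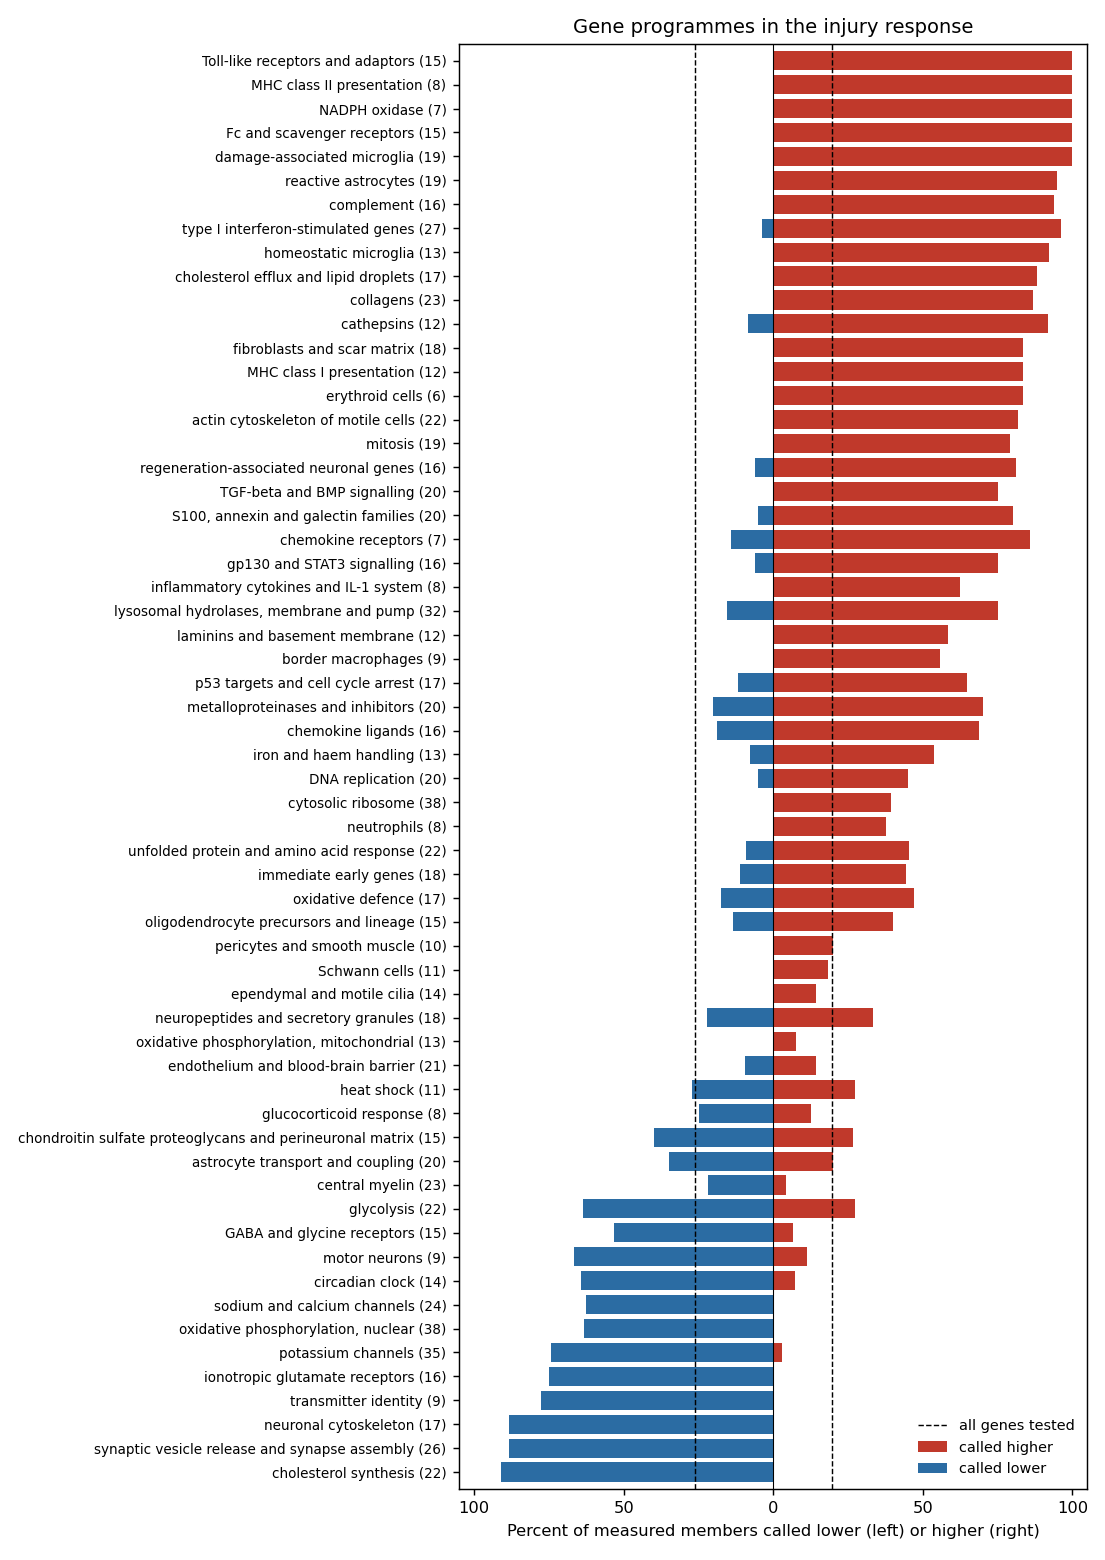
Percent of the measured members of each of 60 gene lists that were called higher (red, to the right) or lower (blue, to the left) on injury, with the number of measured members in brackets. Dashed lines mark the 19.7% higher and 26.1% lower among all 15155 genes; lists of phagocytes and immunity lead the rises, and lists of neurons and of cholesterol synthesis lead the falls.

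Many of the largest rises were in genes of phagocytes. Gpnmb, a membrane glycoprotein of phagocytes that digest lipid (ENSMUSG00000029816, chromosome 6, 49013480 to 49047863 of mm39), was at 0.351, 0.299 and 0.292 FPKM in the uninjured and 220.3, 134, 84.8 and 68.1 FPKM in the injured libraries, a log2 change of 6.45 ± 0.35 (adjusted p = 1.16e-05). Lyz2, the lysozyme of macrophages, went from 10.6, 11.1 and 7.07 FPKM to 1132, 1003, 709.6 and 519 FPKM (log2 change 6.27 ± 0.27, adjusted p = 4.99e-06). Cd68, a glycoprotein of the lysosomal membrane, went from 3.41, 2.99 and 2.7 FPKM to 160.1, 139, 99.4 and 93 FPKM (log2 change 4.91 ± 0.19, adjusted p = 3.54e-06). Non-overlap of the groups was a condition of the ranking of largest rises from which these 3 genes come. For each of them replicate 1 was the highest and replicate 4 the lowest of the injured libraries. Clec7a, the receptor dectin-1 of activated microglia, was more even, at 0.314, 0.37 and 0.312 FPKM and then 22.1, 27.2, 23.2 and 23.4 FPKM (log2 change 4.23 ± 0.077, adjusted p = 1.62e-07). Of 19 genes of the damage-associated state of microglia, 19 were measured and 19 rose, with a median log2 change of 2.82.

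Genes of resting microglia rose as well. Of 13 measured homeostatic genes 12 rose, and their summed level was 93.3 to 106 FPKM in the uninjured and 497 to 515 FPKM in the injured libraries. Fcrls, an Fc receptor-like gene of mouse microglia, was at 4.42, 3.99 and 4.3 FPKM and then 75.5, 65.3, 68.9 and 77 FPKM (log2 change 3.79 ± 0.073, adjusted p = 1.62e-07). The fractalkine receptor Cx3cr1 went from 7.8, 9.7 and 8.09 FPKM to 42.7, 42, 42.6 and 47.1 FPKM (log2 change 2.23 ± 0.082, adjusted p = 2.78e-06). Its ligand Cx3cl1, which is made by neurons, fell from 69.4, 61.8 and 61.4 FPKM to 38.1, 37.6, 36.9 and 37.5 FPKM (log2 change -0.76 ± 0.061, adjusted p = 5.63e-05). Receptor and ligand thus moved in opposite directions with no overlap between groups.

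The uptake and digestion machinery rose broadly. All 15 measured Fc and scavenger receptors of 16 listed rose, with a median log2 change of 2.04, led by the common Fc receptor chain Fcer1g (3.75), Fcgr3 (3.2) and the integrin chain Itgb2 (3.13). All 7 subunits of the phagocyte NADPH oxidase, which makes superoxide, rose with a median log2 change of 2.08. Of 12 cathepsins, the proteases of the lysosome, 11 rose and 1 fell. Ctsd rose from 119, 131 and 130.4 FPKM to 1440.5, 1266, 954 and 951 FPKM (log2 change 3.15 ± 0.15, adjusted p = 8.13e-06), whereas Ctsf fell from 16.3, 16.3 and 15.4 FPKM to 14.1, 10.8, 13.6 and 13.3 FPKM (log2 change -0.29 ± 0.089, adjusted p = 0.0298). The call for Ctsf was lost without uninjured replicate 1, 2 or 3 or without injured replicate 4 (adjusted p = 0.051 to 0.092). Among 32 measured genes of lysosomal hydrolases, membrane and pump 24 rose and 5 fell. The falls included Atp6v1b2 (log2 change -0.69) and Atp6v1a (-0.52), subunits of the proton pump that also fills synaptic vesicles, and the glycogen-digesting enzyme Gaa (-0.53). Of 24 of these genes with a RefSeq promoter, 8 (33.3%) held the E-box CACGTG, read the same on both strands, in the 200 bases before the start, against 5.28% of all 27025 promoters. The holders included Lamp1, Gla, Glb1, Naglu and Sgsh, which rose, and Gaa and Atp6v1a, which fell. Of 10 cathepsin promoters, those of Ctsd, which rose, and Ctsf, which fell, held it. A link between the motif and the direction of change was not tested.

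Handling of lipid changed in both directions. Of 17 measured genes of cholesterol efflux and lipid droplets 15 rose and 0 fell, with a median log2 change of 1.3. Cd36, a receptor for oxidised lipid, stood at 0.217, 0.122 and 0.115 FPKM without injury and at 15.2, 15.2, 4.79 and 4.04 FPKM with it, with replicates 1 and 2 well above replicates 3 and 4 (log2 change 3.02 ± 0.43, adjusted p = 8.89e-04). Lpl, which releases fatty acids from lipoproteins, was at 0.697, 0.977 and 0.717 FPKM and 10.4, 14.9, 10 and 11.4 FPKM (log2 change 2.81 ± 0.13, adjusted p = 6.37e-06). Ch25h, which makes an oxysterol, was at 0.632, 0.176 and 0.593 FPKM and 10, 13.2, 5.08 and 10.7 FPKM (log2 change 2.82 ± 0.27, adjusted p = 1.37e-04). Enzymes and regulators of cholesterol synthesis moved the other way, and 20 of 22 measured genes fell and 0 rose, with a median log2 change of -0.77. Insig1, a sensor of sterols that is itself induced when sterols are scarce, fell from 56.3, 66.4 and 61.4 FPKM to 26.4, 25.3, 27.3 and 28 FPKM (log2 change -1.17 ± 0.07, adjusted p = 1.84e-05). The groups did not overlap for Insig1.

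Because these genes fell together, their promoters were searched for the sterol response element TCACNCCAC, which binds SREBP factors, and for the CCAAT box that often accompanies it, on both strands of the 200 bases before the RefSeq start. Of 23 listed genes 16 had a RefSeq promoter, of which 14 (87.5%) held CCAAT and 1 (6.25%) the sterol element, against 30.0% and 0.847% of 27025 promoters. The promoter with both was that of Hmgcs1, the synthase at the entry to the pathway, which fell from 86.1, 121 and 112 FPKM to 57.1, 48.5, 60 and 58.6 FPKM (log2 change -0.90 ± 0.13, adjusted p = 7.69e-04). It is shown 5′ to 3′ as an example of a promoter of a falling gene, from chr13:119690151-119690350 on the + strand of GRCm38.p6, with CCAAT, here as its reverse complement, and the sterol element in capitals. Hmgcs1 was chosen for this after the motif was found in it.
Hmgcs1 promoter: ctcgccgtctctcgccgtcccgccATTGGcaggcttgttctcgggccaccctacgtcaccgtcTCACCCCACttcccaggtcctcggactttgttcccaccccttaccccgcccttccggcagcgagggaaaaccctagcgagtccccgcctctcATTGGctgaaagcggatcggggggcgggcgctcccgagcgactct

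Recruitment signals and their receptors rose together. Of 16 measured chemokines of 22 listed, 11 rose and 3 fell. Ccl3, which attracts monocytes and is made by activated microglia, was at 0.0636, 0.0636 and 0 FPKM and then at 3.1, 4.62, 4.12 and 6.2 FPKM (log2 change 2.37 ± 0.17, adjusted p = 3.71e-05). Ccl4 went from 0.295, 0.443 and 0.701 FPKM to 5.76, 6.36, 6.41 and 6.38 FPKM (log2 change 2.3 ± 0.099, adjusted p = 4.99e-06). Pf4, a chemokine of platelets and border macrophages, went from 0.675, 0.609 and 0.357 FPKM to 12.4, 7.74, 6.18 and 7.71 FPKM (log2 change 2.59 ± 0.20, adjusted p = 4.54e-05). Besides Cx3cl1, the falls were Ccl17 (log2 change -0.72) and Cxcl14 (-0.24). The call for Cxcl14 was lost without uninjured replicate 1 (adjusted p = 0.0568). Of 7 measured receptors 6 rose, among them Cxcr4 (log2 change 2.07), and the atypical receptor Ackr1 of venules fell by 0.30 on that scale. Toll-like receptors and their adaptors rose in 15 of 15 measured members. They were led by Unc93b1 (log2 change 2.38), the chaperone of nucleic acid-sensing receptors, by Cd14 (2.33) and by Tlr7 (2.27). Cytokine genes were low at this time, since 9 of 18 listed genes stayed below 1 FPKM in all 7 libraries and 8 were measured. Of these 5 rose, including Tgfb1 (log2 change 1.56), Il1r1 (1.02) and Il1a (0.91).

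Most measured genes of complement, antigen presentation and the interferon response rose. Complement genes, which tag debris and synapses for uptake, rose in 15 of 16 measured members with a median log2 change of 2.34. C1qb, a chain of the first component, was at 30.9, 41.1 and 38.7 FPKM and then 507, 475, 373 and 393 FPKM (log2 change 3.53 ± 0.14, adjusted p = 3.83e-06), and C1qa and C1qc changed by 3.37 and 3.52 on the log2 scale. For class II presentation all 8 measured genes rose. Ifi30, a thiol reductase of the endosome, went from 2.29, 2.24 and 1.89 FPKM to 34.1, 29.3, 24.1 and 23.4 FPKM (log2 change 3.18 ± 0.13, adjusted p = 4.72e-06), and the invariant chain Cd74 from 5.36, 7.17 and 1.29 FPKM to 15.7, 14.1, 11.6 and 12.5 FPKM (log2 change 1.55 ± 0.38, adjusted p = 0.0118). The uninjured value of Cd74 was lowest in replicate 3. For class I presentation 10 of 12 rose and 0 fell, led by B2m (log2 change 1.92). Of 27 measured type I interferon-stimulated genes 26 rose and 1 fell, with a median log2 change of 0.73. Bst2, a membrane protein that tethers viruses, went from 5.98, 6.1 and 3.93 FPKM to 28.2, 25.8, 20.7 and 21.4 FPKM (log2 change 1.99 ± 0.16, adjusted p = 5.17e-05), and the member that fell was the nucleotide kinase gene Cmpk2, from 11.2, 11.7 and 9.71 FPKM to 7.94, 7.84, 6.8 and 7.7 FPKM (log2 change -0.47 ± 0.081, adjusted p = 0.00218).

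Interferon-stimulated genes are switched on through the interferon-stimulated response element, and the core GAAANNGAAA was searched on both strands of the same window. Of 34 listed genes 23 had a RefSeq promoter, and 10 of these (43.5%) held the core, against 2.33% of all promoters. The promoter of Bst2, the member with the largest rise, is shown from chr8:71537473-71537672 on the - strand of GRCm38.p6, 5′ to 3′, with a pair of overlapping matches in capitals. A match is a string of letters and does not show that a factor bound there.
Bst2 promoter: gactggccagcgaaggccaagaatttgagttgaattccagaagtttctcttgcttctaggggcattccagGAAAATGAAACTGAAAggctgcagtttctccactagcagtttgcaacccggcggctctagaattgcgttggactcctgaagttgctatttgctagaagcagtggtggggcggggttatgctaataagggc

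Some genes of blood-borne cells rose from very low levels. Of 8 monocyte genes 4 stayed below 1 FPKM in all 7 libraries. The 4 measured ones, Arg1, Chil3, Ifitm6 and Plac8, rose. Summed levels of the list were only 6.74 to 15.6 FPKM in injured cords against 1.65 to 2.33 FPKM without injury. Chil3, a secreted chitinase-like protein, stood at 0.507, 0.568 and 0.221 FPKM and 4.05, 3.2, 2.25 and 1.29 FPKM (log2 change 1.32 ± 0.25, adjusted p = 0.00372), and Arg1, arginase 1, at 0.109, 0.175 and 0.0693 FPKM and 5.83, 2.58, 0.708 and 1.19 FPKM (log2 change 1.47 ± 0.42, adjusted p = 0.0221). Both were highest in injured replicate 1, and the injured libraries were far apart. The call for Arg1 was lost without uninjured replicate 1, 2 or 3 or without injured replicate 2 (adjusted p = 0.0526 to 0.0627). Of 8 measured neutrophil genes 3 rose, with Csf3r, the receptor of granulocyte colony-stimulating factor that microglia also express, at log2 change 2.41 and the calcium-binding protein S100a8 at 1.3. Of 11 genes of macrophages at the meninges and vessels, 9 were measured and 5 rose. Lymphocytes left little trace. Of 16 genes of T and NK cells, 14 stayed below 1 FPKM in all 7 libraries, and for the T-cell receptor constant gene Trac the values were 2.03, 2.45 and 3.25 FPKM and 2.14, 2.05, 2.83 and 2.48 FPKM, which overlap (log2 change -0.07 ± 0.13, adjusted p = 0.675). Ighm, the immunoglobulin heavy chain of B cells, was at 18.8, 29.4 and 16.7 FPKM and 15.5, 20.2, 15.4 and 17.4 FPKM (log2 change -0.29 ± 0.18, adjusted p = 0.236). Haemoglobin genes of red cells rose, with Hbb-bs at 13.2, 18.2 and 28 FPKM and then 309, 280.2, 158 and 149 FPKM (log2 change 3.42 ± 0.33, adjusted p = 1.29e-04). Reads of near-identical haemoglobin copies may be divided among them, so the member is uncertain.

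Most astrocyte genes of the reactive state rose, whereas those of transport had no common direction. Of 19 measured reactive genes 18 rose, with a median log2 change of 1.6. In a separate list of glial intermediate filaments, which holds Gfap and Vim, 4 of 4 measured genes rose. Gfap, the filament protein of astrocytes, went from 409, 543 and 528 FPKM to 1689, 1807, 2197 and 1897 FPKM (log2 change 1.95 ± 0.13, adjusted p = 2.58e-05), and Vim, vimentin, from 18.8, 24 and 19.6 FPKM to 229, 160.1, 197 and 168 FPKM (log2 change 3.11 ± 0.14, adjusted p = 5.11e-06). Serpina3n, a secreted protease inhibitor, is from the reactive list. It went from 30, 33.2 and 27.7 FPKM to 512, 369.5, 413 and 409 FPKM (log2 change 3.76 ± 0.12, adjusted p = 2.11e-06). Of 20 genes of uptake, water flow and coupling 4 rose (20%) and 7 fell (35%), against 19.7% and 26.1% of all genes. The median log2 change was 0.05. The water channel Aqp4 rose from 73, 89.4 and 90.6 FPKM to 177, 242, 277 and 266 FPKM (log2 change 1.49 ± 0.16, adjusted p = 2.24e-04), lowest in injured replicate 1. The amino acid transporter Slc7a10 fell from 41.2, 48.1 and 44.8 FPKM to 24.8, 22.6, 26 and 23.7 FPKM (log2 change -0.85 ± 0.073, adjusted p = 7.68e-05). The growth factor receptor Fgfr3 and the glypican Gpc5 also fell (log2 changes -0.54 and -0.81), and the connexin Gja1 and the transcription factor Sox9 rose (0.43 and 0.49). Of the named transport genes, those that rose and those that fell each separated the groups without overlap.

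The signalling route through gp130 and STAT3, which drives astrocyte reactivity, rose in 12 of 16 measured members. Socs3, the feedback inhibitor of that route, went from 1.09, 0.691 and 0.445 FPKM to 7.29, 4.96, 5.73 and 4.01 FPKM (log2 change 1.89 ± 0.19, adjusted p = 1.48e-04). Cntfr, the receptor chain for ciliary neurotrophic factor, fell from 45.8, 45.9 and 45 FPKM to 32.4, 30, 33.5 and 30.6 FPKM (log2 change -0.51 ± 0.057, adjusted p = 2.63e-04). In the S100, annexin and galectin families, which bind calcium or sugars, 16 of 20 rose. Lgals3, galectin-3 of phagocytes, changed by 4.22, S100a11 by 2.73 and Anxa3 by 2.41 on the log2 scale, and Anxa6 fell (-0.37). The metal-binding Mt1 rose with wide spread, from 204, 251 and 389.8 FPKM to 578, 1213, 999.5 and 912 FPKM (log2 change 1.72 ± 0.28, adjusted p = 0.00179).

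**Figure D3:**
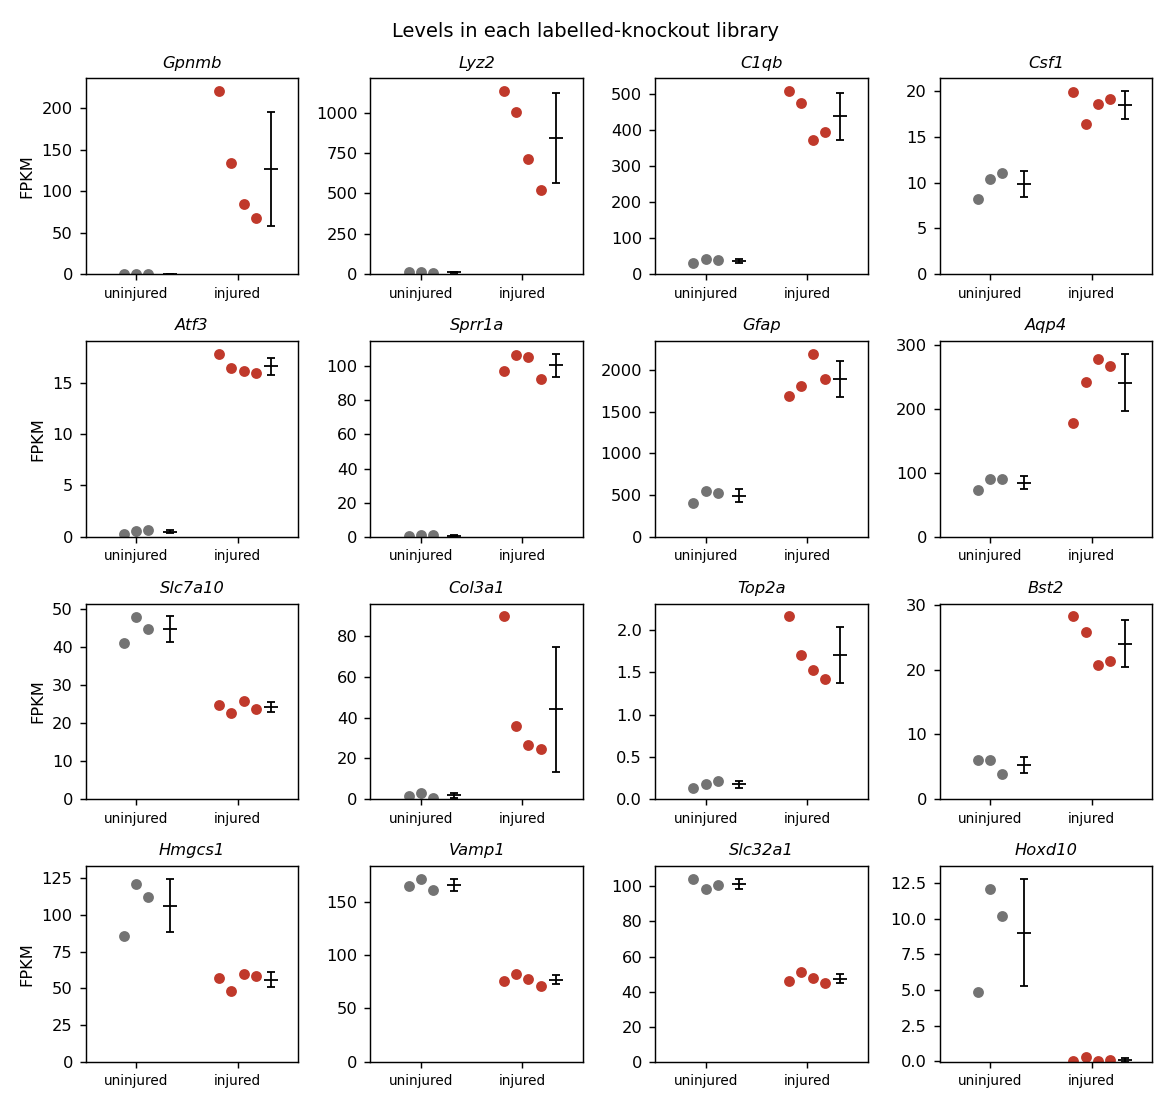
FPKM of 16 genes in each labelled-knockout library, with grey points for the 3 uninjured and red points for the 4 injured libraries in replicate order, and a bar for the group mean and its SD. Each axis starts at 0 or, where an error bar reaches below it, slightly lower. Gpnmb and Col3a1 were highest in injured replicate 1, whereas Atf3 and Sprr1a were nearly equal in the 4 injured libraries, and Slc7a10, Hmgcs1, Vamp1, Slc32a1 and Hoxd10 fell.

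Fibrillar collagens and fibroblast genes rose in every injured library, by most in replicate 1. Col3a1, a collagen of young scar, was at 1.8, 3.11 and 0.686 FPKM and then 89.6, 35.8, 26.6 and 24.5 FPKM (log2 change 3.86 ± 0.47, adjusted p = 3.80e-04), and Col1a1 at 5.64, 7.98 and 2.71 FPKM and 129.8, 48.9, 44.3 and 36.6 FPKM (log2 change 3.26 ± 0.45, adjusted p = 7.64e-04). The fibronectin gene Fn1 went from 5.67, 4.65 and 2.99 FPKM to 48, 21.8, 22.2 and 33.2 FPKM (log2 change 2.53 ± 0.29, adjusted p = 3.00e-04). Of 23 measured collagens 20 rose, and of 18 fibroblast and matrix genes 15. Collagens summed to 531.7 FPKM in injured replicate 1, the library with muscle RNA, and to 206 to 230.0 FPKM in the other injured libraries, against 53.4 to 77.9 FPKM without injury. Without that replicate 19 collagens and 15 fibroblast genes were called higher, with median log2 changes of 1.18 and 1.54 in place of 1.35 and 1.76. Of 12 measured laminin and basement membrane genes 7 rose, with a median of 0.72, and 0.50 without replicate 1.

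Genes of the chondroitin sulfate matrix had no common direction. The proteoglycan Vcan rose from 1.56, 2.01 and 1.92 FPKM to 5.02, 4.65, 4.62 and 4.11 FPKM (log2 change 0.98 ± 0.086, adjusted p = 8.39e-05), and Tnr, tenascin-R of the oligodendrocyte lineage and some neurons, rose from 8.31, 7.74 and 8.73 FPKM to 12.9, 16, 17.4 and 15.5 FPKM (log2 change 0.82 ± 0.097, adjusted p = 3.35e-04). Hapln4, a link protein of perineuronal nets, fell from 78.1, 74.8 and 73.1 FPKM to 30, 35.8, 33.5 and 28.6 FPKM (log2 change -1.22 ± 0.084, adjusted p = 2.92e-05), and Bcan, brevican, fell by less (-0.58). In total 4 of 15 rose (26.7%) and 6 fell (40%), against 19.7% and 26.1% of all genes, with a median log2 change of 0.017. Among metalloproteinases and their inhibitors 14 of 20 rose. Timp1, an inhibitor, went from 0.768, 0.988 and 1.04 FPKM to 40.7, 25.9, 24.9 and 27.9 FPKM (log2 change 3.97 ± 0.16, adjusted p = 4.41e-06). Mmp12, the elastase of macrophages, went from 0, 0.00674 and 0 FPKM to 4.28, 8.4, 2.14 and 2.36 FPKM (log2 change 2.26 ± 0.35, adjusted p = 0.00127), whereas the gelatinase Mmp9 fell from 4.21, 5.08 and 5.06 FPKM to 2.08, 2.14, 2.23 and 1.28 FPKM (log2 change -0.99 ± 0.13, adjusted p = 6.39e-04). The 2 proteases thus moved in opposite directions, with no overlap for either.

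Vessel genes changed little as a group. Of 21 measured endothelial genes 3 rose and 2 fell, shares below those of all genes in each direction. Icam1, an adhesion molecule for leukocytes that other activated cells also make, rose from 0.636, 0.537 and 0.366 FPKM to 3.86, 3.23, 3.28 and 3.03 FPKM (log2 change 1.52 ± 0.099, adjusted p = 2.30e-05), and Plvap, a marker of leaky fenestrated vessels, fell from 6.74, 7.31 and 6.86 FPKM to 4.09, 2.9, 4.06 and 4.24 FPKM (log2 change -0.73 ± 0.11, adjusted p = 9.84e-04). Of 10 pericyte and smooth muscle genes 2 rose, and 1 did without injured replicate 1. Of 20 genes of the TGF-beta and BMP routes 15 rose. Iron handling rose in 7 of 13 members, with the phagosomal metal transporter Slc11a1 at 2.7, ferritin light chain Ftl1 at 1.97 and haem oxygenase Hmox1 at 1.64 on the log2 scale, and the transferrin receptor Tfrc fell (-0.48).

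Genes of cell division rose from low levels. Top2a, the topoisomerase that untangles chromosomes, was at 0.13, 0.184 and 0.217 FPKM and then 2.16, 1.71, 1.53 and 1.42 FPKM (log2 change 1.19 ± 0.12, adjusted p = 1.49e-04), and no injured library overlapped an uninjured one. Of 30 mitosis genes 19 were measured, 15 rose and 0 fell, and 10 stayed below 1 FPKM in all 7 libraries. Of 29 replication genes 20 were measured and 9 rose. Rrm2, which supplies deoxynucleotides, went from 0.773, 0.721 and 0.687 FPKM to 2.92, 2.38, 2.87 and 2.94 FPKM (log2 change 1.13 ± 0.084, adjusted p = 4.20e-05), and Mcm6, a subunit of the replicative helicase, from 1.58, 1.86 and 1.3 FPKM to 3.89, 2.52, 2.89 and 3.05 FPKM (log2 change 0.66 ± 0.13, adjusted p = 0.00355). The cyclin Ccne1 fell from 7.33, 7.44 and 7.26 FPKM to 4.11, 4.33, 4.02 and 4.11 FPKM (log2 change -0.70 ± 0.053, adjusted p = 4.49e-05). Genes that p53 induces or that halt the cycle rose in 11 of 17 members and fell in 2, with the stress cytokine Gdf15 at log2 change 1.61 and the death receptor Fas at 1.28. Actin genes of motile cells rose in 18 of 22, led by Plek (2.58), the capping protein Capg (2.29) and Arpc1b (2.2).

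Promoters of mitosis genes carry the CHR element TTTGAA and CCAAT boxes, and those of replication genes carry E2F sites, here searched as TTTCCCGC or TTTGGCGC. On both strands of the 200 bases before the start, CHR was in 7 of 26 mitosis promoters (26.9%) and CCAAT in 21 (80.8%), against 12.7% and 30.0% of all 27025 promoters. An E2F site was in 5 of 24 replication promoters (20.8%), against 1.17% of all. Top2a (from chr11:99024190-99024389) and Mcm6 (from chr1:128359706-128359905), both on the - strand of GRCm38.p6, are shown 5′ to 3′ as rising members of each kind. Capitals mark CHR and CCAAT, on either strand, in Top2a and E2F sites in Mcm6.
Top2a promoter: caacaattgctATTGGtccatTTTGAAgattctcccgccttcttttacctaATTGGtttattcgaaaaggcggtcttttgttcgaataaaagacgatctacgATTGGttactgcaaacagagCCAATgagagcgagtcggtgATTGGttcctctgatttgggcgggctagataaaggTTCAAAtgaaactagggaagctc
Mcm6 promoter: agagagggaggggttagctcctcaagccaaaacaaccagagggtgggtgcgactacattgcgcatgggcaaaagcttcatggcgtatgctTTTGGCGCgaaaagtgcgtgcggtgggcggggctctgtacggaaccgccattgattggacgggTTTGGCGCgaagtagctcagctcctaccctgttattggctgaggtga

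Most measured genes of cut axons rose, Sprr1a and Atf3 to nearly equal levels in the 4 injured libraries, while most other neuronal genes fell. Sprr1a, a small proline-rich protein made by neurons whose axon is cut (chromosome 3, 92391259 to 92393202 of mm39), was at 0.242, 0.786 and 0.702 FPKM and then 97.2, 107, 106 and 92.8 FPKM (log2 change 6.03 ± 0.13, adjusted p = 2.15e-07). Atf3, a transcription factor of the same axotomy response, was at 0.294, 0.566 and 0.597 FPKM and then 17.8, 16.5, 16.1 and 15.9 FPKM (log2 change 3.57 ± 0.087, adjusted p = 5.43e-07). The neuropeptide genes Gal and Adcyap1, which axotomy also induces in some neurons, changed by 1.33 ± 0.19 and 1.22 ± 0.16 on the log2 scale (adjusted p = 8.54e-04 and 5.36e-04). Of 16 measured regeneration-associated genes 13 rose, and Basp1, a protein of growth cones, fell (log2 change -0.28). The call for Basp1 was lost without uninjured replicate 1, 2 or 3 or without injured replicate 2 or 3 (adjusted p = 0.068 to 0.114). In injured replicate 4, where sensory ganglion genes stood out, Atf3 was at 15.9 and Sprr1a at 92.8 FPKM, near the other injured libraries. The part of ganglion tissue in these rises was not tested.

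Genes of the neuronal scaffold and of the synapse had lower mean scores in each injured library than in each uninjured one. Of 17 cytoskeletal genes 15 fell and 0 rose, with a median log2 change of -0.70, and of 26 synaptic genes 23 fell and 0 rose, with a median of -0.66. Vamp1, the vesicle fusion protein of fast synapses in the cord, fell from 165, 171 and 161 FPKM to 76.1, 82.1, 77.7 and 71.5 FPKM (log2 change -1.1 ± 0.064, adjusted p = 1.67e-05). Ina, the neurofilament protein internexin, fell from 123, 120.1 and 115 FPKM to 58.9, 64.5, 62.4 and 57.9 FPKM (log2 change -0.96 ± 0.062, adjusted p = 2.23e-05). Glutamate receptor genes fell in 12 of 16 members and GABA and glycine receptor genes in 8 of 15. The vesicular transporter Slc32a1 of inhibitory neurons fell from 104, 98.7 and 101 FPKM to 45.8, 51.1, 47.6 and 45 FPKM (log2 change -1.08 ± 0.062, adjusted p = 1.55e-05), and Slc17a6 of excitatory neurons from 44, 38.7 and 38.1 FPKM to 21.8, 27.1, 21.8 and 26.1 FPKM (log2 change -0.71 ± 0.098, adjusted p = 7.03e-04). Within each gene the 4 injured libraries were close to each other.

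Many ion channel genes of neurons fell. Scn4b, an auxiliary sodium channel subunit, fell from 125, 126 and 134 FPKM to 44.3, 58, 52.4 and 54 FPKM (log2 change -1.28 ± 0.092, adjusted p = 3.49e-05). Of 35 potassium channel genes 26 fell and 1 rose. The rise was of Kcnk6, from 0.528, 0.834 and 0.88 FPKM to 4.24, 4.28, 3.6 and 3.68 FPKM (log2 change 1.51 ± 0.10, adjusted p = 2.54e-05). Of 24 sodium and calcium channel genes 15 fell and 0 rose. Motor neuron genes fell in 6 of 9 members, including the acetylcholine transporter Slc18a3 (log2 change -0.60), and the peptide gene Calca rose (0.95) with overlap between the groups. The call for Calca was lost without uninjured replicate 1 or 3 (adjusted p = 0.053 to 0.0733). Nat8l, the neuronal enzyme that makes N-acetylaspartate, fell from 212, 211 and 213 FPKM to 83.8, 89.2, 85.9 and 82 FPKM (log2 change -1.3 ± 0.055, adjusted p = 4.99e-06). Chga, chromogranin A of secretory granules, fell (-1.12), as did the plasticity gene Arc (-0.68), while the immediate early genes Jun and Junb rose (0.63 and 0.63).

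The largest falls among called genes were in Hox genes, which in the adult cord keep the expression set by position along the body axis, those with higher numbers being caudal. Hoxd10 (chromosome 2, 74522268 to 74525449 of mm39) fell from 4.83, 12.1 and 10.2 FPKM to 0, 0.264, 0 and 0.0594 FPKM (log2 change -3.14 ± 0.26, adjusted p = 6.24e-05). Hoxc11 stood at 1.76, 3.74 and 4.17 FPKM without injury and had no read in any injured library. A floor of 3 reads in each library (0.0706 to 0.089 FPKM) puts its injured level at least 36.2-fold lower, and for Hoxc12 at least 16-fold lower. Of the 19 measured Hox genes numbered 1 to 8, 5 were called lower, with a median log2 change of -0.32, and of the 11 numbered 9 to 12, 8 were called lower, with a median of -1.27. None of the 30 was called higher. Uninjured replicate 1 had the lowest values of Hoxd10, Hoxc11 and Hoxc12 among the uninjured libraries. The labels describe the uninjured segments as matching but name none, so segments taken further towards the head in injured mice and a response to injury cannot be told apart here, and the same holds for the neuronal and motor neuron genes above, whose levels differ along the cord.

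Myelin genes changed little, with fewer calls than among all genes, and genes of the oligodendrocyte lineage moved in both directions. Of 23 measured myelin genes 5 fell and 1 rose, with a median log2 change of -0.09. Cldn11, the tight junction protein of myelin, rose from 318, 358 and 364 FPKM to 453, 401, 469 and 463 FPKM (log2 change 0.36 ± 0.083, adjusted p = 0.00819), and Fa2h, which makes hydroxylated myelin lipids, fell from 97.3, 104 and 92.2 FPKM to 68.4, 53.6, 73.4 and 69.3 FPKM (log2 change -0.57 ± 0.11, adjusted p = 0.00378). Of 15 precursor and lineage genes 6 rose and 2 fell, with a median log2 change of 0.21. Without the 4 rRNA-rich libraries, which leaves injured replicate 1 alone, the median was 0.098. Gpr17 and Enpp6, which mark cells that are committed to become oligodendrocytes, rose from 15, 14.5 and 15.6 FPKM to 27.4, 23.4, 32.7 and 31.8 FPKM and from 8.56, 10.6 and 11.1 FPKM to 15.1, 15, 19.6 and 17.7 FPKM (log2 changes 0.88 ± 0.11 and 0.68 ± 0.12, adjusted p = 5.11e-04 and 0.00217). Injured replicates 3 and 4 were the highest for both. Olig1 fell (log2 change -0.37). Of 11 measured Schwann cell genes 2 were called higher, and of 14 ependymal genes 2.

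Many nuclear genes of the respiratory chain and of glycolysis fell. Of 38 nuclear genes of the respiratory chain 24 fell and 0 rose, with a median log2 change of -0.42. Ndufv1, a subunit of complex I, fell from 76.2, 79.1 and 82.3 FPKM to 52.1, 48.3, 48.7 and 49.5 FPKM (log2 change -0.66 ± 0.057, adjusted p = 7.68e-05). Without the 4 rRNA-rich libraries the median was -0.37, and that comparison rests on 1 injured library, replicate 1. Of 13 mitochondrial genes 1 rose, mt-Nd5 (log2 change 0.67 ± 0.12, adjusted p = 0.00223). In glycolysis 14 of 22 genes fell and 6 rose. The median log2 change was -0.40, and -0.31 without the rRNA-rich libraries. The neuronal enolase Eno2 fell from 276, 273 and 249.5 FPKM to 140.0, 137, 129 and 129 FPKM (log2 change -0.98 ± 0.065, adjusted p = 2.41e-05). The hexokinase Hk3 of myeloid cells rose from 0.767, 0.556 and 0.531 FPKM to 4.53, 2.93, 2.77 and 2.78 FPKM (log2 change 1.38 ± 0.15, adjusted p = 2.20e-04), and so did Hk2 (1.25) and the lactate exporter Slc16a3 (0.97). Ribosomal protein genes rose in 15 of 38 members, with Rplp0 at log2 change 0.78. Their median log2 change was 0.32, and 0.54 without the rRNA-rich libraries, which again rests on 1 injured library. The mean score of the ribosomal list overlapped between the groups, at 6.631 in uninjured replicate 3 and 6.627 in injured replicate 3.

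Stress, clock and hormone genes were mixed. The unfolded protein and amino acid response rose in 10 of 22 members and fell in 2, where Asns, asparagine synthetase, was at log2 change -0.52. Heat shock genes rose in 3 and fell in 3 of 11. Among oxidative defence genes the peroxidase Prdx6, which astrocytes express, rose from 57.1, 63.4 and 66.3 FPKM to 140.0, 157, 169 and 147 FPKM (log2 change 1.28 ± 0.084, adjusted p = 2.37e-05), and the mitochondrial dismutase Sod2 fell (-0.54). Of 14 clock genes 9 fell and 1 rose. Dbp, an output gene of the clock, stood at 10.8, 27.4 and 31.4 FPKM and 13.3, 5.69, 8.49 and 9.32 FPKM and overlapped between groups (log2 change -1.17 ± 0.37, adjusted p = 0.0327), and the repressor Nr1d1 at 17.2, 25.4 and 24.5 FPKM and 16.5, 7.68, 13 and 11.9 FPKM (log2 change -0.84 ± 0.23, adjusted p = 0.019). The call for Dbp was lost without uninjured replicate 2 or 3 or without injured replicate 2, 3 or 4 (adjusted p = 0.0585 to 0.114). The call for Nr1d1 was lost without uninjured replicate 2 or 3 (adjusted p = 0.0653 to 0.0721). The hour of tissue collection, on which these genes depend, is not stated in the labels, so hour and injury cannot be told apart. Hsd11b1, which regenerates active glucocorticoid, fell from 7.0, 8.42 and 9.93 FPKM to 3.28, 3.22, 3.58 and 2.47 FPKM (log2 change -1.19 ± 0.13, adjusted p = 2.26e-04), and the glucocorticoid target Tsc22d3 fell as well (-0.72).

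Of 973 measured genes that the deposited table marks as transcription factors, 192 (19.7%) were called higher and 185 (19.0%) lower. The shares among all genes were 19.7% and 26.1%. Among the largest rises after Atf3 were factors of the myeloid lineage, which were named after their values were seen. Spi1, the master regulator PU.1, changed by 2.11 ± 0.11, Irf8 by 2.0 ± 0.09 and Cebpa by 1.95 ± 0.12 on the log2 scale (adjusted p = 1.05e-05, 5.38e-06 and 2.23e-05). Spi1 was at 2.06, 2.26 and 1.7 FPKM without and 14, 12.7, 11.2 and 10.2 FPKM with injury. Apart from Hox genes, the largest fall among them was of Scrt1, a repressor restricted to neurons, from 102, 90.2 and 94.7 FPKM to 38, 36.6, 36.6 and 36 FPKM (log2 change -1.35 ± 0.06, adjusted p = 5.05e-06).

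**Figure D4:**
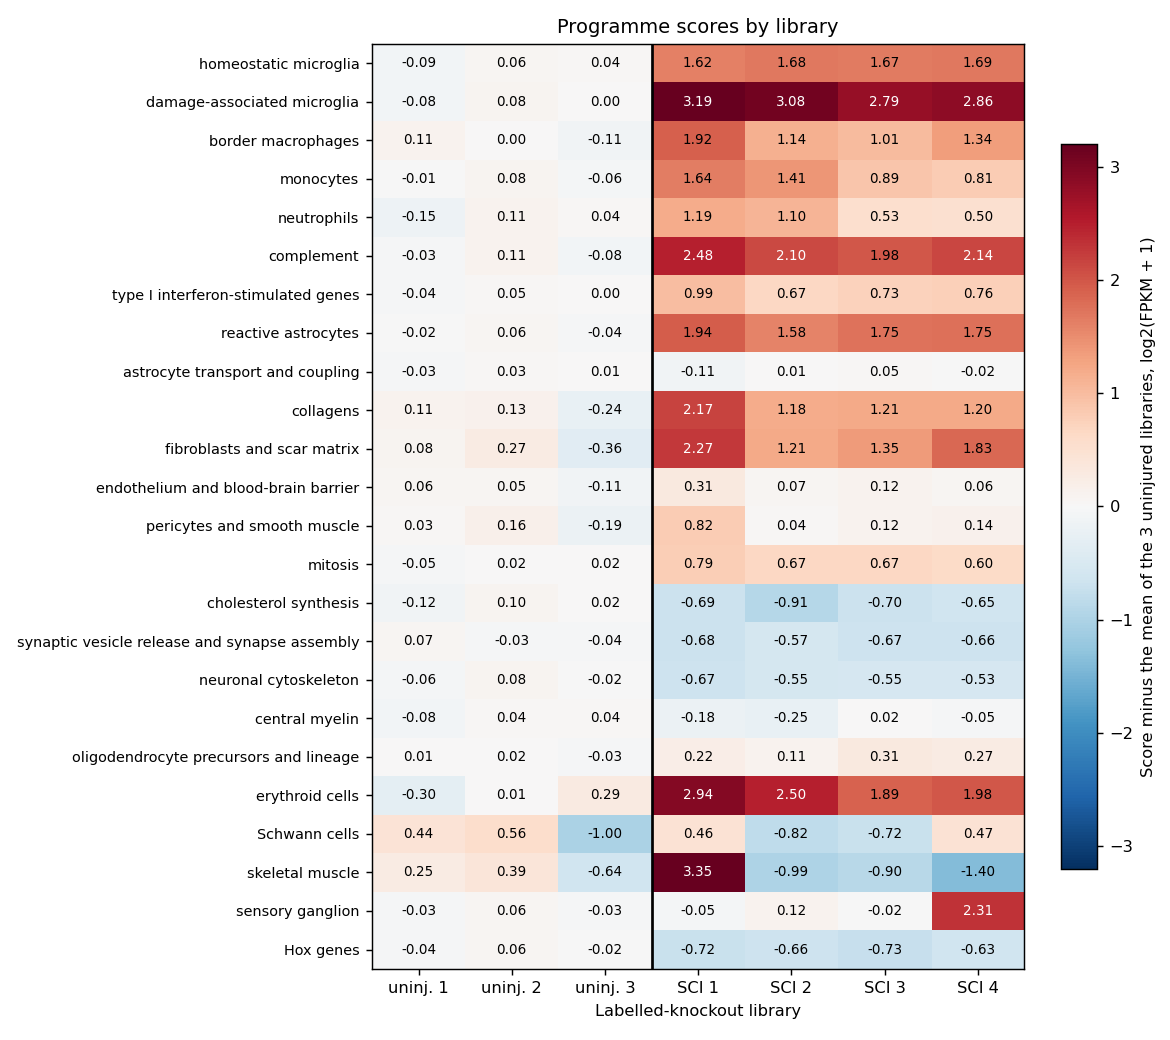
Mean log2(FPKM + 1) of the measured members of 24 gene lists in each of the 7 labelled-knockout libraries, minus the mean of the 3 uninjured ones, with the value printed in each cell. Damage-associated microglia rose by 2.79 to 3.19 in all injured libraries, whereas collagens (2.17) and skeletal muscle (3.35) stood out in injured replicate 1 and sensory ganglion (2.31) in injured replicate 4.

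In control cords most of these genes moved the same way, with fewer calls. In 3 of the 7 control libraries (uninjured replicate 1, injured replicates 1 and 4) fewer genes were detected, 19474 to 22054 against 24791 to 26333 in the other 11 libraries. With them 158 genes (1.04%) were called on injury in control cords, and without them 3624 (23.9%). Of the 2991 genes called higher in labelled-knockout cords 94.9% also had a positive change in control cords, where 44.1% of all genes did. Of the 3952 called lower 96.7% had a negative change there, against 55.9% of all genes. Without the 3 control libraries 93.2% of the genes called higher and 90.2% of those called lower moved the same way in controls. The difference between the 2 injury responses, tested as an interaction in limma over all 14 libraries, was called for 0 genes (0% of 15155), with 91 at an unadjusted p under 0.05. Without the 3 control libraries it was again called for 0 genes, with 2158 at an unadjusted p under 0.05. Absence of a call does not show that the responses were equal.

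**Figure D5:**
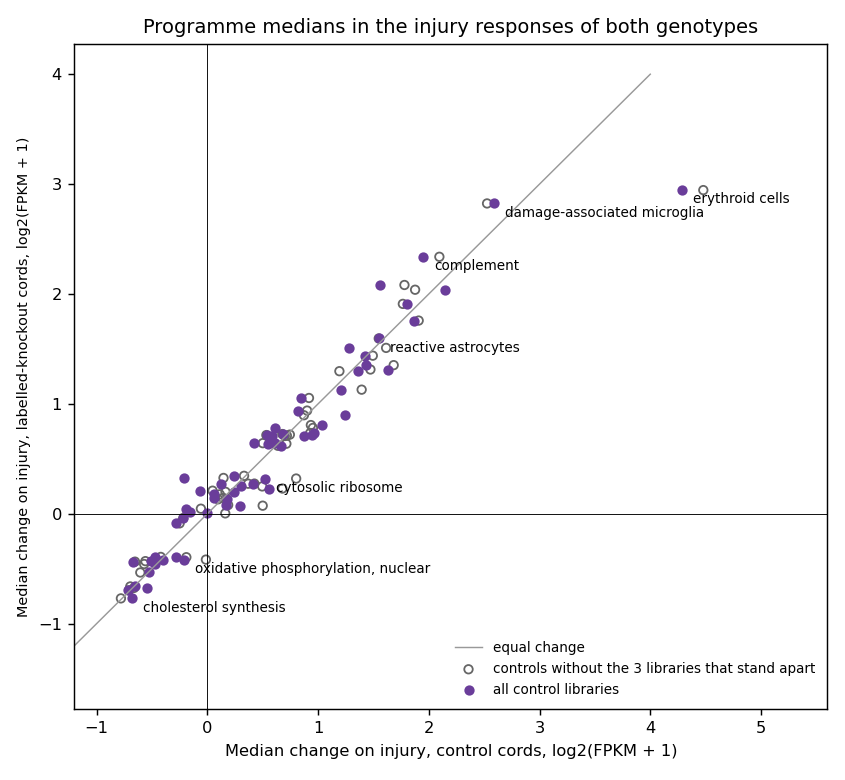
Median change on injury of the measured members of 60 gene lists, as log2(FPKM + 1), in labelled-knockout cords against control cords, with filled points for all 7 control libraries and open points without the 3 that stand apart. Most lists lie near the line of equal change; erythroid cells lie furthest below it, at 2.95 in labelled-knockout cords and 4.29 in controls.

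Side by side, several lists had unlike medians in the 2 genotypes, none of them tested as a list. Erythroid genes changed by a median of 2.95 in labelled-knockout cords and by 4.29 in control cords, or 4.48 without the 3 libraries. For Hba-a1 the injured values were 312, 182, 121 and 135 FPKM with the labelled deletion and 737, 1918, 198 and 58.7 FPKM in controls, and its interaction was -1.68 ± 1.25 on the log2 scale (adjusted p = 1.0). Nuclear genes of the respiratory chain changed by -0.42, against -0.21 and -0.01 without the 3 libraries. For Cox5b the interaction was -0.32 ± 0.51 (adjusted p = 1.0). Interferon-stimulated genes changed by 0.73, against 0.96 and 0.93, and the interaction of Ifi27l2a, an interferon-induced gene, was 0.39 ± 0.92 (adjusted p = 1.0). An interaction above 0 is a larger change in labelled-knockout cords, so this gene went the other way from its list. Tnr changed by 0.82 in labelled-knockout cords and by 0.41 in controls, or 0.05 without the 3 libraries, with an interaction of 0.41 ± 0.30 (adjusted p = 1.0). Damage-associated microglia and reactive astrocyte lists had medians of 2.82 and 1.6 with the labelled deletion and of 2.59 and 1.55 without it.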

How the data were processed

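RNA of whole mouse spinal cord was sequenced after poly(A) selection, in paired ends of about 150 bp and without strand, per the labels' protocols. Per the submitters' processing notes the tools were CASAVA 1.8 and HISAT2 with the build mm39, and which program counted reads per gene is not given in the sources used here. Values in the deposited table are FPKM, made by the authors, for 56748 genes, with gene length and mm39 positions as other columns. In each library 100% of values above 0 were whole multiples of 1 read within 0.01, which gave the recovered reads. Reads carry no molecular identifiers, so the floor of 3 reads covers counting error only.

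Genes with at least 1 FPKM in at least 3 of 14 libraries were kept, 15155 in all, and analysed as log2(FPKM + 1) with limma 3.58.1 in R 4.3.3, with an intensity trend. P-values are two-sided and adjusted by the Benjamini-Hochberg method across the kept genes, with calls at an adjusted p under 0.05. The pseudocount makes changes of low genes smaller. The fit of the injury response used the 7 labelled-knockout libraries, that of the control response the 7 control libraries, and the interaction all 14. Nothing in the labels says that replicates are separate animals, so p-values measure the spread between these samples. The fit was tested on simulated data with known changes. Scores are averages of log2(FPKM + 1) over the kept members of a list, taken library by library. A list counts as higher or lower where at least 50% of at least 5 kept members are called in that direction.

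The members and the 72 lists were chosen with earlier results of these data known. Named genes are Csf1, the 15 called genes that rose most and the 15 that fell most with injured and uninjured libraries apart (without predicted genes and pseudogenes), and for each list up to 3 called members with the largest rise and 3 with the largest fall, or the 2 most abundant where none is called. The text uses a subset of these, and some are not reported here. Hmgcs1, Spi1, Irf8 and Cebpa lie outside this rule and were chosen after their values were seen. Because strand was not kept, a gene and an antisense partner cannot be told apart. Promoters are RefSeq sequences of GRCm38.p6, matched by symbol, 200 bases before the first listed start of 27025 symbols, and no coordinate was moved between builds.

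Alternatives were a pseudocount of 0.1, no filter, a filter at 5 FPKM, a filter on the 7 libraries, median-ratio scaling, all 14 libraries in the fit, voom on recovered reads, replicate as a block, the rRNA-rich libraries as a term or left out, and each library left out in turn. The fit without the rRNA-rich libraries also left out the 3 control libraries with fewer detected genes. The other control libraries entered it as groups of their own. Sex, read from Xist and Ddx3y, as a term was added after seeing the data.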

Additional observations from a re-analysis of the deposited data

Results flagged for a closer look

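In the 4 injured labelled-knockout libraries the gap between 1 library and its nearest neighbour exceeded the 95% critical share of the range in Dixon's test for 14 of 142 genes named with values and for 3 of 4 summed lists. Chance flags about 1 group in 20, and genes of 1 library are not independent.

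Injured replicate 1 was apart for Col1a1, at 129.8 FPKM, for the actin-capping Capg, at 21.4 FPKM, and for the hexokinases Hk2 and Hk3, at 4.14 and 4.53 FPKM, all above the other 3 libraries. It was below them for Gja1, at 39.2 FPKM, and for Ccl4, at 5.76 FPKM. Collagens summed to 531.7 FPKM there and skeletal muscle genes to 436 FPKM. Without this library the log2 change of Col1a1 was 2.86 in place of 3.26 and that of Hk2 was 1.12 in place of 1.25.

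Injured replicate 2 was apart for Il1a, at 1.85 FPKM, and the pump subunit Atp6v1a, at 65.3 FPKM, both high, and for Plvap, at 2.90 FPKM, Rrm2, at 2.38 FPKM, and Jun, at 29.1 FPKM, all low. Injured replicate 3 was apart for Sox9, at 16.3 FPKM, the highest. Injured replicate 4 was apart for Cx3cr1, at 47.1 FPKM, the highest, for Mmp9, at 1.28 FPKM, the lowest, and for sensory ganglion genes, which summed to 25.3 FPKM. Each of these genes was called in the same direction without the library that stood apart.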

How the results depend on the processing

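The count of 6943 genes called on injury moved by more than 1.5 times under a pair of alternatives. With all 14 libraries in the fit, so that the control libraries set part of the spread, it was 1141 (836 higher and 305 lower). Without the 4 rRNA-rich libraries it was 3795 (1887 higher and 1908 lower), with 1 injured library left, which is then assumed to vary like the others. Under the other alternatives the count of called genes lay between 5077 (filter at 5 FPKM) and 7168 (voom), and leaving out each library gave 5435 to 6863. The filter at 5 FPKM tested 8983 genes. No filter tested 36121 and called 6057, so these counts are not shares of the same total. Median-ratio scaling gave 6715, with 3445 higher and 3270 lower in place of 2991 and 3952. The log2 change of Csf1 kept its sign throughout, at 0.737 to 0.927 without 1 library, and missed the threshold with all 14 libraries (0.85, adjusted p = 0.176). The 42 lists called in 1 direction became 15, all higher, with all 14 libraries in the fit, and were 37 to 45 in number otherwise, with 39 to 42 when a library was left out. Over 18 alternatives their medians kept their sign in 756 of 756 values. The interaction was called for 0 genes under each alternative. Of 139 called genes with a change in the text besides Csf1, 77 were called under every alternative and 61 were lost with all 14 libraries. Trac, which was not called, changed sign without uninjured replicate 3, and its log2 change without 1 library was -0.187 to 0.056. Replicate numbers were not shown to pair the samples, since deviations of same-numbered libraries correlated at 0.158, -0.147 and 0.206. With replicate as a block 5622 genes were called, 40 lists were called in 1 direction and the Csf1 change was 0.83 (adjusted p = 0.00782). With sex as a term, added after seeing the data, 6682 were called. The causes of these changes were not tested. Genes near 1 FPKM rest on few reads, so small changes among them were not detectable.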

Other observations

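Beyond the programmes above, 93 of 854 measured long noncoding RNAs were called higher and 140 lower. Both shares were below the 19.7% and 26.1% of all genes. Neat1, the scaffold of nuclear paraspeckles, went from 10, 7.9 and 7.0 FPKM to 17.5, 13.1, 16.7 and 12.5 FPKM (log2 change 0.78 ± 0.15, adjusted p = 0.00343), and Rian, an imprinted transcript, from 12.7, 11.8 and 11.1 FPKM to 9.77, 10.2, 8.91 and 8.88 FPKM (log2 change -0.30 ± 0.072, adjusted p = 0.00976). Among the largest rises not yet named, Mpeg1, the pore-forming perforin-2 of phagocytes, went from 5.22, 7.09 and 5.78 FPKM to 155, 136, 103 and 96.3 FPKM (log2 change 4.12 ± 0.17, adjusted p = 4.99e-06). Tyrobp, the adaptor DAP12 through which Trem2 signals, went from 10, 12.9 and 16.1 FPKM to 223, 213, 144 and 153 FPKM (log2 change 3.71 ± 0.20, adjusted p = 1.13e-05). Among the largest falls, the peptide ligand Apln, apelin, went from 29.1, 30.9 and 26.7 FPKM to 12, 10, 10.6 and 11.3 FPKM (log2 change -1.32 ± 0.078, adjusted p = 1.72e-05). Efna3, a ligand of Eph receptors, went from 17, 18.5 and 16.5 FPKM to 8.15, 6.31, 6.83 and 6.27 FPKM (log2 change -1.22 ± 0.092, adjusted p = 4.44e-05). For Neat1 and Rian the groups did not overlap. For the other genes in this paragraph, non-overlap was a condition of the ranking of largest rises and falls and is not a result.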
